A study of Homo sapiens with 40 samples.

Results

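The comparison described here is vilanterol together with roflumilast N-oxide (RNO) against vehicle, across all genes, in the human bronchial epithelial cell line BEAS-2B, which was immortalised with a viral oncogene. Its members are the 4 libraries labelled vilanterol 100 nM + RNO and the 4 vehicle libraries, 8 of the 40 libraries of the series, taken by label. Vilanterol is a long-acting agonist of the β2-adrenoceptor given to patients with obstructive airway disease, and RNO is the active metabolite of roflumilast, an inhibitor of the PDE4 phosphodiesterases. Confluent cells, kept overnight without serum, received vehicle, RNO (1 uM), vilanterol (100 nM) or vilanterol with RNO for 2 h, and these 4 groups of 4 libraries cross both drugs. A further group used here received 1 uM of ONO-AE1-329 (ONO), which activates EP4, a receptor for prostaglandin E2, with the same RNO. To choose genes and for scale, the groups of 1 uM ONO alone and of 0.1 nM ONO with and without RNO were also used, and 1 plot shows all 10 groups, 1 nM ONO with and without RNO included. All groups share the line, the medium and the time, and a single line stands for 1 genetic background.

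The β2-adrenoceptor couples through the G protein Gs to adenylyl cyclase, which makes cAMP, and PDE4 enzymes break cAMP down. Rising cAMP activates protein kinase A, which phosphorylates the transcription factor CREB and keeps the CRTC coactivators in the nucleus by way of the salt-inducible kinases. CREB binds the cAMP response element, an 8-base palindrome, or its half-sites, in promoters such as those of the NR4A nuclear receptors. In airway epithelium the pathway is known for ciliary beating, fluid secretion and the regulation of inflammatory genes, and β2-adrenoceptor agonists and PDE4 inhibitors are both used as medicines in this tissue.

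Values are normalised TPM (transcript abundance per length and library size, adjusted between samples by the authors). They are shares of a library's RNA, so fewer cells and less RNA per cell cannot be told apart. Read depth is unknown, and no interval for counting error is given. Calls were made with limma at an adjusted p (Benjamini-Hochberg) under 0.05, after a fit to log2(TPM + 1) of 12591 genes, those averaging at least 1 TPM across the 40 libraries. That fit does not use the replicate number. Every adjusted p given for 1 gene comes from it unless another setting is named. The labels do not state that a group's 4 replicates were separate cultures, so the p-values rest on a spread among samples that may be technical only. Column totals lay between 956888 and 1091466. Vehicle replicate 3 held the highest total and the lowest median level (8.47 TPM) and stood apart from its group, with an SD over genes of 0.209 log2 around the group mean, against at most 0.169 in the other 39 libraries. Counts that move by more than 1.5 times without it are given both ways.

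The labelled epithelial identity was checked against marker genes. The simple keratins KRT8 and KRT18 stood at 425 ± 40.4 and 362 ± 31.9 TPM in vehicle (SD, n = 4) and KRT17 at 307 ± 25.4 TPM. The basal markers KRT5, KRT14 and TP63 and the junction genes CDH1 and EPCAM were not among the genes tested. The mesenchymal genes VIM (1353 ± 59.4 TPM) and COL1A1 (481 ± 59.1 TPM) were abundant. No marker of ciliated, secretory or endothelial cells reached the level for testing, with summed levels of the listed markers of at most 0.415 TPM for ciliated and secretory cells and 0.983 TPM for endothelial cells in any of the 8 libraries. Of the leukocyte markers only CD68 was tested (13.7 ± 1.37 TPM in vehicle and 13.4 ± 1 TPM with vilanterol + RNO).

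Vilanterol + RNO changed 2322 of the 12591 genes tested (18.4%). Of these, 1259 were higher (10% of genes tested) and 1063 lower (8.44%). The larger changes were increases: 126 genes rose by at least 2-fold on the log2(TPM + 1) scale (1% of genes tested) and 11 fell by as much (0.0874%), counts that were 68 and 6 with log2(TPM + 5) (100 and 6 with a mean of at least 5 TPM), while 2185 of the called genes changed by less. At least 4-fold increases were seen for 22 genes and at least 8-fold increases for 8, against 4 genes that fell at least 4-fold. The median absolute change among called genes was 0.26 log2. For 1866 genes (14.8%) the ranges of treated and vehicle libraries were separate, and 1636 of them were called. The 20 highest and 20 lowest genes named below were chosen among these called genes. A lack of overlap in them was thus fixed by the choice. With libraries rescaled to equal totals 1384 genes were higher and 650 lower, 68.0% of calls higher against 54.2%. Same-numbered replicates deviated together over genes, and with the replicate number as a block 4029 genes were called (3307 with the block and without vehicle replicate 3). With only the 8 libraries of the comparison in the fit 960 were called.

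**Figure D1:**
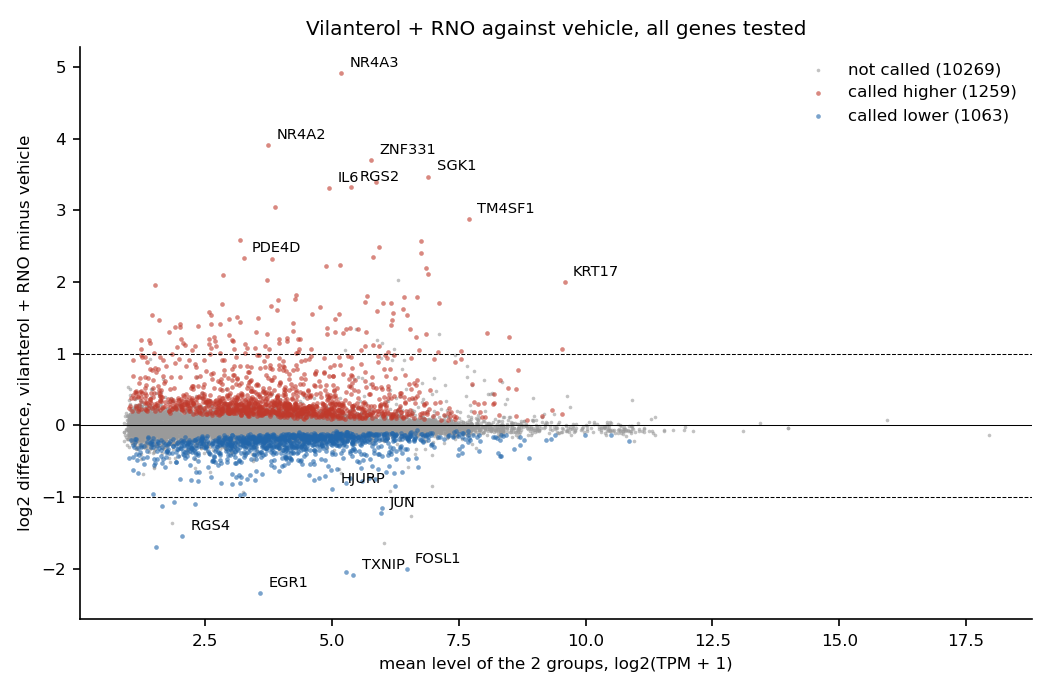
Each point is 1 of 12591 genes; the horizontal axis is the mean level of vehicle and vilanterol + RNO in log2(TPM + 1), and the vertical axis is the log2 difference, vilanterol + RNO minus vehicle. Red points are the 1259 genes called higher, blue points the 1063 called lower and grey points those not called; dashed lines mark 2-fold. Most changes over 4-fold lie on the upper side, with NR4A3 at 4.91 and EGR1 lowest at -2.34.

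The strongest increases were in the NR4A orphan nuclear receptors, transcription factors that act as early targets of CREB. NR4A3 was at 0.98, 2.07, 1.09 and 1.26 TPM in the 4 vehicle libraries and at 71.9, 72.5, 61 and 70.2 TPM with vilanterol + RNO. The groups were far apart, and the mean rose 51.1-fold (log2 difference 4.91 ± 0.18 SE, adjusted p = 5.7e-21). NR4A2 went from 0.467, 1.11, 0.565 and 0.471 TPM to 30.9, 25.2, 17.6 and 22.6 TPM, 36.8-fold (log2 difference 3.91 ± 0.18 SE, adjusted p = 1.4e-18). NR4A1, which started higher, went from 13.3, 23.5, 14.6 and 18.2 TPM to 107, 98.7, 73.2 and 88.7 TPM, 5.28-fold (log2 difference 2.35 ± 0.21 SE, adjusted p = 1.1e-10). With treatment the 3 family members lay between 17.6 and 107 TPM, whereas their vehicle levels ranged from 0.467 to 23.5 TPM. The zinc finger gene ZNF331 rose 14.9-fold, from 6.25, 7.54, 6.31 and 6.83 TPM to 112, 107, 82.2 and 99.8 TPM (log2 difference 3.70 ± 0.14 SE, adjusted p = 9.9e-21).

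The promoter of NR4A3 is shown because this gene had the largest change and its promoter carries several copies of the element's half-site. The stretch lies upstream of the gene start at chr9:99821736-99821884 on the plus strand of GRCh38.p14 (RefSeq), with 4 half-sites (TGACG, or CGTCA for the other strand) in capitals. The closest starts 25 bases before the gene start.
NR4A3: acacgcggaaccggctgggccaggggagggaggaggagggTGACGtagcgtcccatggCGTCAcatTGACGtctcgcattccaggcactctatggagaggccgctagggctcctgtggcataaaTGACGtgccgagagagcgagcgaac

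Most genes listed for the cAMP and CREB response rose. Of 26 tested members 21 were higher (80.8%, against 10% of all genes) and 0 lower, and 17 were higher by at least 2-fold. Their median log2 difference was 1.30, against -0.01 over all genes tested. In limma 0 members were lower at an unadjusted p under 0.05, and 0 were called lower under each of the 19 alternatives. SGK1, a kinase that regulates ion channels, was at 19.1, 17.7, 22.2 and 14.9 TPM in vehicle and 297, 223, 169 and 182 TPM with vilanterol + RNO, 11.8-fold (log2 difference 3.47 ± 0.19 SE, adjusted p = 2.3e-16). The long non-coding RNA LINC00473 went from 6.16, 12.9, 7.46 and 11.3 TPM to 107, 103, 99.7 and 109.9 TPM, 11.1-fold (log2 difference 3.39 ± 0.18 SE, adjusted p = 4.7e-17). The neurotrophin BDNF rose from 10.5, 14.7, 11.7 and 11.8 TPM to 37.8, 42.7, 37.3 and 42.7 TPM, 3.3-fold (log2 difference 1.65 ± 0.10 SE, adjusted p = 9.7e-15). In each of these genes the lowest treated library lay above the highest vehicle library. FOS, often used as a marker of CREB activity, was at 2.15, 2.67, 2.09 and 1.93 TPM in vehicle and 1.85, 2.87, 2.89 and 2.25 TPM with treatment, so the groups overlapped (log2 difference 0.10, adjusted p = 0.69). CRTC2, CRTC3, CEBPB and BTG2 were the other members that did not pass the test. With the replicate block 24 members were higher, and CRTC3, CEBPB and BTG2 were among them (adjusted p = 0.02, 0.002 and 0.00044).

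The full cAMP response element (TGACGTCA, its own reverse complement, which contains a half-site on each strand) was sought on both strands of RefSeq promoter windows of 250 bases before to 50 bases after the gene start. It was found in 649 of 35116 windows (1.85%), and a half-site in 24.6%. Of the 20 genes with the highest log2 differences 18 matched a window, and of their 35 windows 1 held the full element (2.86%) and 16 a half-site (45.7%). Among 14411 windows of genes tested, of which 78.7% matched a window, the full element was in 2.89% and a half-site in 32.4%. The share with the full element in the 20 genes was thus no higher than in genes tested, and 6 of the 16 windows with a half-site belong to ZNF331. Windows were found for only 70.6% of the 126 genes higher by at least 2-fold. Of their 154 windows 9 held the full element (5.84%) and 54 a half-site (35.1%). The difference from genes tested was not tested, and genes without a window are left out of it. The stretches below are shown because their genes rose and hold the full element, in capitals, upstream of the gene start. They come from GRCh38.p14 at chr10:97687436-97687491 (AVPI1, minus strand), chr5:172771273-172771360 (DUSP1, minus), chr4:74445031-74445118 (AREG, plus) and chr11:1572298-1572429 (DUSP8, minus). A match describes letters in the window and says nothing of binding.
AVPI1: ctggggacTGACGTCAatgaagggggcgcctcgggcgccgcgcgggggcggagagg
DUSP1: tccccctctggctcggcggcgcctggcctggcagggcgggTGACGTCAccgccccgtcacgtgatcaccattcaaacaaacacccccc
AREG: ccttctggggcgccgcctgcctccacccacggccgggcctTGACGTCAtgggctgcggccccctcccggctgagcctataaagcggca
DUSP8: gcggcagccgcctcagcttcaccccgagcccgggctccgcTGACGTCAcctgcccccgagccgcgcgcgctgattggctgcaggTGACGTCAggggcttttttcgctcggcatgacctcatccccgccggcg

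AVPI1, a gene first described as induced by vasopressin, rose 4.35-fold, from 33.5, 43.1, 53.3 and 45.7 TPM to 183, 184, 195 and 201 TPM (log2 difference 2.11 ± 0.17 SE, adjusted p = 3e-12). DUSP1, a phosphatase that inactivates MAP kinases, went from 58.8, 76.7, 59.4 and 59.5 TPM to 244, 218, 172 and 208 TPM, 3.31-fold (log2 difference 1.71 ± 0.14 SE, adjusted p = 6.9e-12). The EGF receptor ligand AREG went from 2.69, 3.57, 3.81 and 4.17 TPM to 6.39, 12.3, 10.7 and 11 TPM, 2.84-fold (log2 difference 1.26 ± 0.19 SE, adjusted p = 5.5e-06). DUSP8 holds 2 copies of the full element and went from 7.75 ± 1.25 to 17.2 ± 2.6 TPM (SD, n = 4). None of these 4 genes had overlapping libraries.

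**Figure D2:**
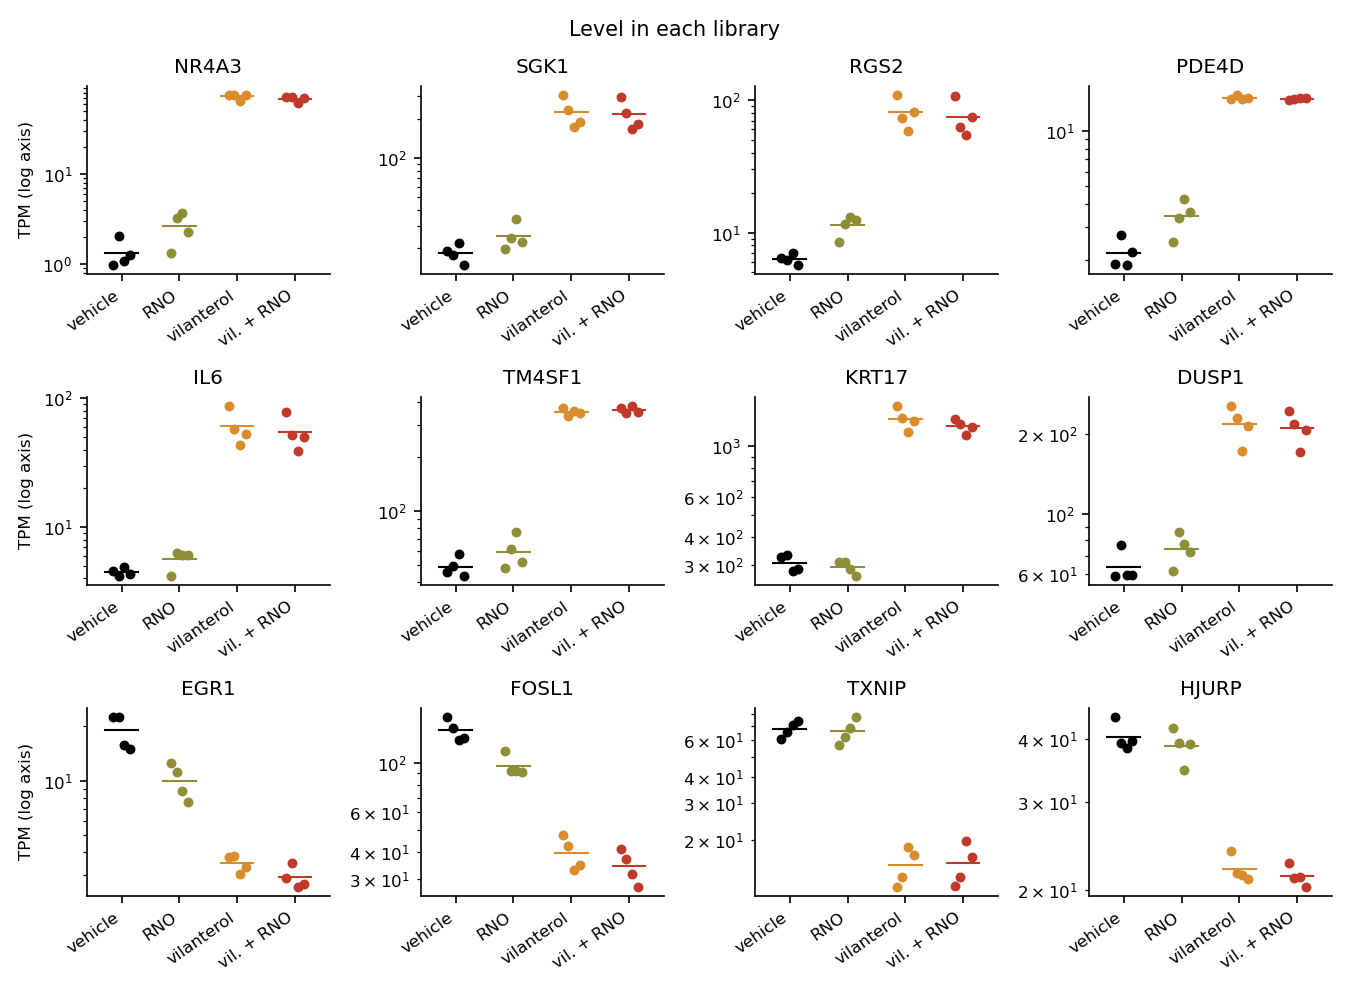
Levels of 12 genes in TPM on log axes, with 1 point per library and a line at the mean of 4 libraries, in vehicle, RNO, vilanterol and vilanterol + RNO. For all 12 genes the vilanterol + RNO libraries lie apart from the vehicle libraries. For NR4A3, SGK1, PDE4D, IL6 and EGR1 their range overlaps that of vilanterol alone, though most EGR1 values with both drugs lie below it. NR4A3 is at 61 TPM or more with vilanterol + RNO and at most 2.07 TPM in vehicle.

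Within the pathway itself, receptors and phosphodiesterases were among the genes called. PTGER4, the gene of EP4, was at 1.69, 1.58, 1.45 and 1.57 TPM in vehicle and 1.34, 0.977, 0.898 and 1.34 TPM with vilanterol + RNO, lower by -0.27 log2 without overlap (adjusted p = 0.025, lost in 4 of 18 alternatives). Of 14 tested genes listed for cAMP synthesis and receptors, 3 were higher (21.4%, against 10% of all genes) and 3 lower (21.4%, against 8.44%). The first count was 7 with the replicate block and 1 without vilanterol + RNO replicate 1 or 2, the second was 1 without vehicle replicate 1 or vilanterol + RNO replicate 2 and 0 without vilanterol + RNO replicate 3, and both were 0 with only the 8 libraries fitted. The called adenylyl cyclases were ADCY9 (log2 difference 0.32) and ADCY1 (0.28). The other higher member was GNAI1 (0.08, adjusted p = 0.046), a gene of an inhibitory G protein subunit. Its call was lost in 7 of 19 alternatives. The adenosine receptor gene ADORA2B (-0.19) was lower. ADCY1 and ADORA2B lost their calls without vehicle replicate 3.

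The enzymes that break cAMP down included 2 of the larger increases. PDE4D was at 1.9, 2.74, 1.88 and 2.2 TPM in vehicle and 14.7, 14.9, 15 and 15.1 TPM with vilanterol + RNO, 6.83-fold (log2 difference 2.33 ± 0.10 SE, adjusted p = 3.8e-19), and its treated libraries were tightly grouped. PDE4B went from 1.01, 1.1, 0.85 and 0.998 TPM to 4.57, 3.46, 3.74 and 3.86 TPM, 3.95-fold (log2 difference 1.30 ± 0.10 SE, adjusted p = 4.5e-13). PDE4A, the third PDE4 isoform tested, was at 1.65, 1.89, 1.55 and 1.77 TPM and 1.87, 1.99, 1.57 and 1.39 TPM, with overlapping groups and a log2 difference of -0.01 (adjusted p = 0.95). PDE4C lay under 1 TPM in every library of both groups and was not tested. Of 10 phosphodiesterases tested only PDE4B and PDE4D were called (20%, against 10% of all genes called higher, and 4 members with the replicate block). None was called lower (1 at an unadjusted p under 0.05, and 1 called without vehicle replicate 1 or 2).

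Of 26 tested genes for protein kinase A, its anchors, CREB, CRTC and the salt-inducible kinases, 7 were higher (11 without vehicle replicate 1) and 0 lower (0 lower at an unadjusted p under 0.05, 1 with the replicate block, 3 with the block and without vehicle replicate 3). The share of these genes called higher was 26.9%, against 10% of all genes. The kinase subunits PRKACA, PRKACB and PRKAR1A changed by 0.03, -0.01 and 0.08 log2, none of which passed the test. The anchoring protein gene AKAP12 rose from 40.4 ± 6.01 to 126 ± 15.5 TPM (SD, n = 4; log2 difference 1.62). SIK2 rose from 7.81 ± 1.58 to 15.2 ± 1.08 TPM (SD, n = 4). The entry naming LOC102724428 and SIK1 together went from 38.5, 37.1, 19.4 and 26.4 TPM to 253, 181, 135 and 162 TPM, 6.03-fold (log2 difference 2.56 ± 0.24 SE, adjusted p = 1.4e-10). Reads of these near-identical copies cannot be told apart, so the level of SIK1 alone is uncertain. CREM, which also yields the CREB repressor ICER from an internal promoter, was higher by 0.41 log2.

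The regulators of G protein signalling went both ways. RGS2, which limits Gq-coupled receptor signalling, was at 6.38, 6.22, 7.04 and 5.69 TPM in vehicle and 108, 62.7, 54.5 and 74.6 TPM with vilanterol + RNO, 11.8-fold (log2 difference 3.33 ± 0.22 SE, adjusted p = 3.2e-14). RGS4, a related inhibitor of Gi and Gq signalling, fell from 5.78, 4.77, 5.43 and 4.41 TPM to 1.46, 0.864, 1.16 and 0.865 TPM, 4.69-fold lower (log2 difference -1.55 ± 0.13 SE, adjusted p = 7.8e-12). RGS3 and RGS7 were also lower, by -0.53 and -0.41 log2. Of 22 tested RGS proteins, receptor kinases and arrestins 2 were higher (RGS2 and ARRDC3, 9.09%, near the 10% of all genes) and 6 lower (27.3%, against 8.44%). The receptor kinases GRK2, GRK3, GRK5 and GRK6 and the β-arrestins ARRB1 and ARRB2 did not pass the test.

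Several transcription factors that respond early to growth factors and serum were lower. EGR1, a target of ERK signalling, was at 22.6, 22.7, 15.7 and 15.1 TPM in vehicle and 2.88, 3.49, 2.56 and 2.67 TPM with vilanterol + RNO, 6.56-fold lower (log2 difference -2.34 ± 0.16 SE, adjusted p = 3.2e-14). The AP-1 subunit FOSL1 fell from 162, 144, 127 and 130.3 TPM to 40.9, 37.1, 31.7 and 27.7 TPM, 4.09-fold (log2 difference -2.01 ± 0.13 SE, adjusted p = 7.8e-15). JUN, another AP-1 subunit, fell from 87.7, 93, 82.9 and 81.2 TPM to 37.6, 37.9, 35 and 35 TPM, 2.37-fold (log2 difference -1.22 ± 0.07 SE, adjusted p = 1.4e-15). No library of either group overlapped the other group in these 3 genes, which their choice among the lowest genes required. KLF10, a TGF-beta inducible repressor, fell from 81.7, 74.8, 34.3 and 54.7 TPM to 14.8, 16.8, 10.1 and 12.7 TPM (log2 difference -2.04 ± 0.28 SE, adjusted p = 7.8e-07), with wide spread among the vehicle libraries. The survival factor IER3 fell from 104, 93.2, 77.1 and 71.3 TPM to 54.2, 38, 31.7 and 30.7 TPM (log2 difference -1.16 ± 0.23 SE, adjusted p = 0.00021). The Notch target HES1 was at 5.22, 3.49, 1.97 and 2.63 TPM and 1.01, 0.789, 0.867 and 0.964 TPM (log2 difference -1.13 ± 0.27 SE, adjusted p = 0.0023).

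Other early genes rose, so the list was mixed. Of 33 tested immediate early genes 14 were lower (42.4%, against 8.44% of all genes) and 8 higher (24.2%, against 10%). Their median log2 difference was -0.09. The AP-1 members differed in direction: FOSL1 and JUN fell, whereas FOSB (0.83 log2), FOSL2 (0.79) and JUNB (0.65) rose and JUND (-0.01) did not pass the test. JUNB lost its call without vehicle replicate 3. ATF3, a stress-induced repressor of the same bZIP family, went from 20.8, 21.4, 14 and 16.9 TPM to 55.5, 43.2, 39.4 and 46.5 TPM, 2.53-fold (log2 difference 1.30 ± 0.13 SE, adjusted p = 1.5e-09). KLF4 rose from 1.56 ± 0.181 to 4.72 ± 1.03 TPM (SD, n = 4) and MYC from 49.9 ± 2.48 to 72.6 ± 7.2 TPM (SD, n = 4). The other lower members included NAB2, the corepressor of EGR1 (-0.57, lost in 3 of 19 alternatives), IER5 (-0.51), MCL1 (-0.48), KLF5 (-0.36) and KLF6 (-0.28).

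The phosphatases and Sprouty proteins that restrain MAP kinases split in the same manner. Of 17 tested members 5 were higher (29.4%, against 10% of all genes) and 6 lower (35.3%, against 8.44%). The higher count was 3 without vehicle replicate 3 or vilanterol + RNO replicate 2. DUSP1, DUSP8 and DUSP10 rose, by 1.71, 1.06 and 0.78 log2. DUSP6, which dephosphorylates ERK, fell from 5.35, 6.49, 5.44 and 5.55 TPM to 2.32, 2.14, 2.38 and 1.72 TPM (log2 difference -1.10 ± 0.10 SE, adjusted p = 1.2e-10). SPRY4, an inhibitor of receptor tyrosine kinase signalling, fell from 2.76, 3.38, 2.03 and 2.44 TPM to 0.748, 0.994, 1 and 0.694 TPM (log2 difference -0.97 ± 0.11 SE, adjusted p = 1.8e-08). DUSP5, another ERK phosphatase, was lower by -0.62 log2.

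Cytokine genes were among the increases. IL6 was at 4.56, 4.17, 4.86 and 4.33 TPM in vehicle and 77.7, 52.2, 38.9 and 50.1 TPM with vilanterol + RNO, 12.2-fold (log2 difference 3.30 ± 0.21 SE, adjusted p = 1.7e-14). IL11, a cytokine of the same family, went from 26.3, 52.7, 47.9 and 38.7 TPM to 192, 192, 182 and 178 TPM, 4.5-fold (log2 difference 2.19 ± 0.20 SE, adjusted p = 1.8e-10). The neutrophil chemokine CXCL2 rose from 0.447, 0.442, 0.603 and 0.834 TPM to 3.61, 2.64, 2.48 and 1.85 TPM (log2 difference 1.19 ± 0.16 SE, adjusted p = 4.5e-07). The treated libraries of these genes all lay above the vehicle libraries. The monocyte chemokine CCL2, at 100.4, 134, 133 and 112 TPM in vehicle, was at 196, 239, 232 and 220.1 TPM with treatment, 1.85-fold (log2 difference 0.89 ± 0.11 SE, adjusted p = 6.7e-08). IL16 was the only member called lower, from 1.37, 1.98, 1.39 and 1.7 TPM to 0.945, 0.936, 0.937 and 1.22 TPM (log2 difference -0.38 ± 0.07 SE, adjusted p = 0.00025). Of 13 tested cytokines and chemokines 5 were higher (38.5%, against 10% of all genes) and 1 lower (7.69%, near the 8.44% of all genes). The lower count was 3 with the replicate block and 2 without vehicle replicate 2 or vilanterol + RNO replicate 4. IL1B, CXCL8 and TNF were among the 20 listed genes not tested.

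Some restraints on inflammatory signalling also rose. Of 24 tested genes listed as negative regulators 9 were higher (37.5%, against 10% of all genes) and 1 lower (4.17%, against 8.44%). The lower member, NFKBIE, lost its call without vehicle replicate 3 or 4 or vilanterol + RNO replicate 1, 2 or 3. SOCS3, an inhibitor of cytokine receptor signalling that IL6-type cytokines induce, went from 22.5, 21.3, 19.3 and 20.2 TPM to 53.2, 50.8, 55.3 and 57.8 TPM, 2.61-fold (log2 difference 1.34 ± 0.11 SE, adjusted p = 6.4e-12). CD200, a surface ligand that inhibits myeloid cells, went from 1.17, 1.85, 1.61 and 1.86 TPM to 13.8, 14.5, 14.1 and 15.9 TPM, 8.99-fold (log2 difference 2.58 ± 0.12 SE, adjusted p = 2.6e-18). TNFAIP3 was higher by 0.52 log2, as was NFKBIZ by 0.82 log2, a gene whose place on this list as a restraint is uncertain. NFKBIA (0.20, called with the replicate block, adjusted p = 0.0071), ZFP36 (-0.14) and TNIP1 (-0.03) did not pass the test. Of the 9 higher members 4 are also on the cAMP list (4 of its 21).

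Genes known to respond to glucocorticoids, the usual partners of vilanterol in inhalers, were higher or not called, with no glucocorticoid named in the labels. Of 18 tested members 9 were higher and 0 lower, with a median log2 difference of 0.30 (0 lower at an unadjusted p under 0.05 and under each of 19 alternatives). The share higher was 50%, against 10% of all genes. Of the 9 genes that were higher, 4 are also on the cAMP list. CRISPLD2, a secreted protein, was at 2.26, 2.3, 2 and 2.07 TPM in vehicle and 21.1, 25, 28 and 26 TPM with vilanterol + RNO, 11.6-fold (log2 difference 3.04 ± 0.16 SE, adjusted p = 1.3e-16). CEBPD rose from 38.9 ± 12.6 to 101 ± 22 TPM and KLF9 from 5.47 ± 1.01 to 12.6 ± 2.15 TPM (SD, n = 4). TSC22D3 (GILZ) and FKBP5, 2 classical glucocorticoid targets, changed by 0.22 and 0.01 log2 and did not pass the test (adjusted p = 0.17 and 0.96).

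TM4SF1, CD24, RHOB, GAS1 and PLPP3 were also among the 20 highest genes. TM4SF1, a tetraspanin-like protein of endothelial and epithelial cells, was at 45.8, 48.9, 57.5 and 43.3 TPM in vehicle and 373, 348, 384 and 352 TPM with treatment, 7.46-fold (log2 difference 2.88 ± 0.10 SE, adjusted p = 4.6e-21). CD24, a glycosylated adhesion molecule, went from 22.8, 16.3, 16.6 and 14.3 TPM to 126, 95.8, 102 and 86.4 TPM, 5.86-fold (log2 difference 2.49 ± 0.17 SE, adjusted p = 1.3e-13). The small GTPase RHOB went from 35.9, 40.2, 27.8 and 29.1 TPM to 220.3, 177, 152 and 167 TPM, 5.39-fold (log2 difference 2.40 ± 0.15 SE, adjusted p = 5.9e-15). The treated libraries of all 3 genes were several times above the highest vehicle library. PLPP3, which dephosphorylates lysophosphatidic acid, rose 5.04-fold to 44.1, 48.5, 48.9 and 47.3 TPM. GAS1, a surface protein linked to growth arrest, rose 4.94-fold from 7.85, 12.6, 12.7 and 13.3 TPM to 50.5, 53.6, 59.2 and 66.3 TPM. The type I keratin KRT17 reached 1314, 1253, 1122 and 1213 TPM from 325, 333, 283 and 289 TPM, 3.99-fold (log2 difference 1.99 ± 0.10 SE, adjusted p = 5.5e-18), whereas KRT8 and KRT18 were lower by -0.33 and -0.43 log2. KRT8 lost its call without vehicle replicate 1 or 3, without vilanterol + RNO replicate 2, 3 or 4, and with equal totals.

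Of 29 tested growth factors 10 were higher (34.5%, against 10% of all genes) and 3 lower (10.3%, near the 8.44% of all genes). FGF9 rose from 5.49 ± 0.585 to 12 ± 0.836 TPM and WNT5A from 5.75 ± 0.789 to 9.63 ± 0.278 TPM (SD, n = 4). PDGFB, a ligand for receptors on mesenchymal cells, fell from 11.4, 12.6, 9.34 and 10.7 TPM to 5.37, 5.83, 4.25 and 5.02 TPM (log2 difference -0.97 ± 0.09 SE, adjusted p = 3.4e-10). PDGFA was lower by -0.70 log2 and lost its call without vehicle replicate 3. VEGFA (-0.07) and HBEGF (-0.06) did not pass the test. Of 25 genes of TGF-beta and BMP signalling 9 were higher (36%, against 10% of all genes) and 2 lower (8%, near the 8.44%). ID3, an inhibitor of bHLH transcription factors, went from 4.4, 4.42, 6.83 and 4.7 TPM to 20.8, 15.7, 14.6 and 13.9 TPM (log2 difference 1.50 ± 0.13 SE, adjusted p = 1.8e-11), while ID1 and ID2 changed by -0.03 and -0.08 log2 and were not called. TGIF1, a repressor of SMAD-dependent transcription, rose from 28.4 ± 2.97 to 71.5 ± 3.06 TPM (SD, n = 4), and the inhibitory SMAD7 was lower by -0.66 log2.

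LATS2, the kinase that inactivates YAP, rose from 37, 45.2, 30.2 and 37 TPM to 127, 134, 123 and 138 TPM, 3.5-fold (log2 difference 1.79 ± 0.08 SE, adjusted p = 2.9e-18). Of 22 tested YAP and TEAD genes 6 were higher (3 without vehicle replicate 3, 10 without vehicle replicate 2 and 10 with the replicate block) and 4 lower. CYR61 and ANKRD1, YAP targets, were lower by -0.45 and -0.40 log2, and CTGF (-0.07) did not pass the test. The median of the list was 0.06 log2, so these genes do not stand for it. Of 28 adhesion and matrix genes 8 were higher and 4 lower (1 lower with libraries rescaled to equal totals, and 2 without vehicle replicate 2 or 4 or vilanterol + RNO replicate 3). Genes of the plasminogen system included PLAUR (0.68) and PLAT (0.59), both higher.

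Some genes of glucose uptake and glycogen storage changed sharply, in either direction. TXNIP, an arrestin-fold protein that limits glucose uptake, was at 61.1, 65.6, 71 and 74.4 TPM in vehicle and 12, 13.2, 19.8 and 16.6 TPM with vilanterol + RNO, 4.41-fold lower (log2 difference -2.09 ± 0.15 SE, adjusted p = 5.2e-13). Its paralog ARRDC4 fell from 12.3, 12.1, 10.2 and 12.4 TPM to 5.23, 5.86, 5.57 and 5.49 TPM, 2.12-fold (log2 difference -0.96 ± 0.09 SE, adjusted p = 1.8e-10). The glucose transporter SLC2A3 (GLUT3) rose from 19, 23.4, 21.3 and 23.4 TPM to 62.9, 87.9, 83.2 and 81.9 TPM, 3.63-fold (log2 difference 1.81 ± 0.16 SE, adjusted p = 6.2e-11). Libraries of the 2 groups were separate for each, which the choice of named genes required of TXNIP and ARRDC4. PPP1R3C, which targets protein phosphatase 1 to glycogen, rose from 3.54, 3.24, 4.19 and 3.6 TPM to 26.3, 21, 20.6 and 21.3 TPM, 6.13-fold (log2 difference 2.33 ± 0.10 SE, adjusted p = 6.6e-19), and PPP1R3B, of the same family, from 2.77 ± 0.192 to 9.01 ± 0.78 TPM (SD, n = 4). PFKFB3, which raises the glycolytic activator fructose 2,6-bisphosphate, was higher by 0.79 log2. Of 26 tested members 10 were higher (38.5%, against 10% of all genes) and 2 lower (7.69%, near the 8.44% of all genes). The enzymes PKM, LDHA and HK1 (-0.03, 0.16 and 0.03) did not pass the test. LDHA was called with the replicate block (adjusted p = 0.0005).

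Genes of mitosis were lower almost throughout, by small amounts. Of 30 tested members 24 were lower and 0 higher, with a median log2 difference of -0.22 against -0.01 over all genes. The share called lower (80%) compares with 8.44% of all genes. In limma 0 members were higher at an unadjusted p under 0.05, and 0 were called higher under each of 19 alternatives, while between 15 (only the 8 libraries fitted) and 30 were called lower. HJURP, the chaperone of centromeric histone CENPA, fell from 44.3, 39.3, 38.4 and 39.5 TPM to 22.6, 21.1, 21.2 and 20.3 TPM, 1.89-fold (log2 difference -0.89 ± 0.05 SE, adjusted p = 3.8e-15). The mitotic kinase PLK1 fell from 84.1, 84.8, 82.1 and 76.5 TPM to 63, 54.4, 52.8 and 50.7 TPM (log2 difference -0.56 ± 0.07 SE, adjusted p = 6.5e-08), and AURKA from 119, 113, 127 and 103 TPM to 88.7, 82.4, 87.8 and 75.3 TPM (log2 difference -0.46 ± 0.07 SE, adjusted p = 4e-06). Neither group's libraries reached into the other's in these 3 genes, of which HJURP was chosen among genes without overlap. BORA, the activator of AURKA, and CDCA8, a subunit of the chromosomal passenger complex, were not on the list and were among the 20 lowest genes, at -0.80 and -0.80 log2. TOP2A (-0.06) and MKI67 (-0.09) did not pass the test.

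Of 22 tested regulators of the G1 phase 4 were higher (18.2%, against 10% of all genes; 7 with the replicate block and without vehicle replicate 3) and 2 lower (9.09%, near the 8.44% of all genes; 5 with the replicate block). CCND1 (cyclin D1) was lower by -0.58 log2, and CDK6 (0.51) and the inhibitor CDKN1A (0.45) were higher. Among 21 tested p53 targets and growth arrest genes 8 were higher and 3 lower (6 lower with the replicate block, 5 without vehicle replicate 1). GADD45A, a stress sensor, fell from 94, 98.5, 91.4 and 97.8 TPM to 56.1, 53.9, 46.8 and 53.6 TPM, 1.81-fold (log2 difference -0.85 ± 0.10 SE, adjusted p = 5.2e-08). PPM1D, a phosphatase that ends p53 signalling, rose from 15.3, 15.7, 15.5 and 15.6 TPM to 26.8, 26.5, 24.8 and 26.5 TPM, 1.69-fold (log2 difference 0.72 ± 0.04 SE, adjusted p = 4.8e-17), with small spread in both groups. MDM2 (-0.06) and BAX (-0.12) did not pass the test, and BAX was called with the replicate block (adjusted p = 0.04).

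**Figure D3:**
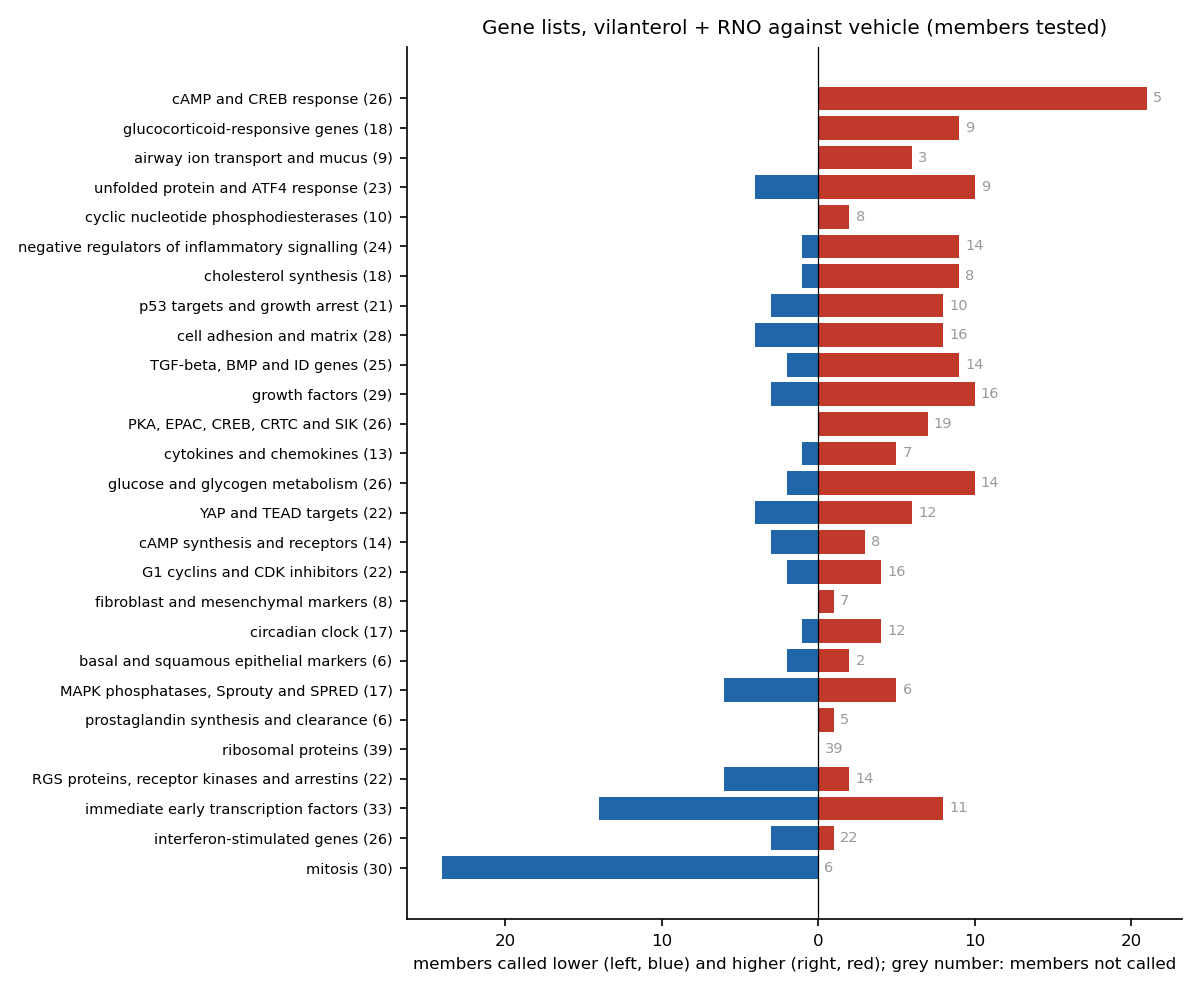
For each of 27 gene lists with at least 6 tested members, the bar to the right counts members called higher and the bar to the left members called lower with vilanterol + RNO against vehicle; grey numbers are members not called and numbers in parentheses members tested. Lists are ordered by their median log2 difference. The cAMP and CREB list has 21 of 26 members higher and the mitosis list 24 of 30 lower, while no ribosomal protein gene was called.

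Of 23 genes of the unfolded protein and ATF4 response 10 were higher and 4 lower. The amino acid transporter SLC7A5 rose from 213 ± 28.1 to 499.7 ± 29.8 TPM (SD, n = 4). DDIT4, an inhibitor of mTORC1, went from 15.1, 18.4, 16.7 and 16.3 TPM to 69.4, 48.9, 37.2 and 52.1 TPM, 3.12-fold (log2 difference 1.56 ± 0.14 SE, adjusted p = 1.2e-10). PPP1R15A (GADD34), which promotes recovery of translation, fell from 67.1, 55.5, 52.8 and 62.2 TPM to 41.9, 32.6, 27.4 and 35.2 TPM (log2 difference -0.78 ± 0.13 SE, adjusted p = 3.2e-05), and DDIT3 (CHOP) was lower by -0.56 log2. Among 17 clock genes 4 were higher (23.5%, against 10% of all genes) and 1 lower (5.88%, against 8.44%). The lower count was 2 without vehicle replicate 3 and with the replicate block. PER1 rose from 10.3, 14.7, 8.8 and 11.5 TPM to 24.2, 30.1, 25.4 and 28.3 TPM (log2 difference 1.20 ± 0.16 SE, adjusted p = 3.2e-07) and NFIL3 by 1.02 log2, whereas PER2 (-0.15), PER3 (-0.04) and CLOCK (0.05) did not pass the test. PER2 was called with the replicate block (adjusted p = 0.037).

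Of 26 interferon-stimulated genes 3 were lower and 1 higher, with a median log2 difference of -0.22 and wide spread. ISG20, an exonuclease, was the member called higher, from 1.55, 1.59, 1.85 and 1.81 TPM to 4.82, 4.83, 4.8 and 4.95 TPM (log2 difference 1.12 ± 0.13 SE, adjusted p = 1.2e-08). IRF1, IFIT3 and IFIT5 were lower by -0.49, -0.64 and -0.38 log2, the second of these lost in 2 of 19 alternatives. The share called lower, 11.5%, was close to the 8.44% of all genes. The share called higher was 3.85%, against 10%. Of 18 genes of cholesterol synthesis and uptake 9 were higher (50%, against 10% of all genes) and 1 lower (MVK, 5.56%, against 8.44%). With the replicate block 4 were lower. INSIG1 (0.51), which retains the sterol sensor in the endoplasmic reticulum, was among the higher. MVK lost its call without vehicle replicate 1 or 3 or vilanterol + RNO replicate 2, 3 or 4. Of 9 tested ion transport and mucus genes 6 were higher by at most 0.34 log2 (2 without vehicle replicate 3, 3 without vilanterol + RNO replicate 1 or 2, 0 with only the 8 libraries fitted). In the main fit the share of ion transport and mucus genes called higher was 66.7%, against 10% of all genes. CFTR, SCNN1A and MUC5AC were not among the genes tested. Among 6 genes for prostaglandin synthesis only PTGES was called (0.91), a share of 16.7% against 10% of all genes called higher. In limma 0 of 39 ribosomal protein genes were called in either direction, with 0 at an unadjusted p under 0.05 3 called lower without vehicle replicate 2 and 3 called higher with the replicate block and without vehicle replicate 3, and their median was -0.06 log2.

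A few named genes outside these lists complete the lower end. METTL7B fell from 3.26, 4.24, 4.7 and 3.78 TPM to 1.21, 1.34, 1.7 and 1.21 TPM (log2 difference -1.07 ± 0.12 SE, adjusted p = 1.5e-08). The entry LOC284454 fell from 12.3, 11.5, 7.91 and 10.7 TPM to 5.62, 6.35, 5.19 and 5.06 TPM (log2 difference -0.81 ± 0.13 SE, adjusted p = 8.7e-06). PGBD3, a gene of transposon origin that lies within the ERCC6 gene, was listed at 2.2, 2, 7.88 and 1.78 TPM in vehicle and at 0.00202, 1.1, 0 and 0 TPM with treatment. Because 2 treated libraries are listed at 0 and the reads of nested transcripts may be split between entries, its fold is not given. Every one of the 20 highest and 20 lowest genes kept its call and direction under each alternative in which it was tested.

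The effect of adding RNO to vilanterol was compared directly, vilanterol + RNO against vilanterol alone. These groups share no library. In limma 0 of 12591 genes were called (0%), with 180 at an unadjusted p under 0.05 (1.43% of genes tested), and 0 were called under each alternative, including the replicate block, where 585 had an unadjusted p under 0.05. NR4A3 was at 76.5, 75.7, 64.2 and 76.6 TPM with vilanterol alone, overlapping the values with RNO, a log2 difference of -0.09 with a 95% interval of -0.45 to 0.27. For SGK1 the vilanterol libraries held 309.6, 235, 174 and 189 TPM, with a difference of -0.06 (-0.44 to 0.33). PDE4D was at 14.9, 15.7, 14.9 and 15 TPM with vilanterol alone, a difference of -0.02 (-0.22 to 0.18). In each of these genes the libraries with and without RNO overlapped. IL6, at 87.8, 58, 43.4 and 52.9 TPM, differed by -0.14 (-0.57 to 0.29). EGR1 was at 3.75, 3.84, 3.02 and 3.32 TPM and differed by -0.20 (-0.52 to 0.11). For these genes the intervals include zero and differences of either sign. The intervals come from the fit that leaves out the replicate number. Between same-numbered libraries, the one with both drugs held the lower value in every pair for NR4A3, SGK1, IL6 and EGR1. For PDE4D the pairs went both ways. The direction within pairs was not tested for single genes, and the replicate block called 0 genes. Over all genes the median half-width of the 95% interval was 0.13 log2, and for 12499 genes (99.3%) the interval lay within 1 log2 of zero. Against vehicle, where 2322 genes were called, this held for 12274 genes (97.5%). The margin of 1 log2 therefore cannot tell small changes from none.

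**Figure D4:**
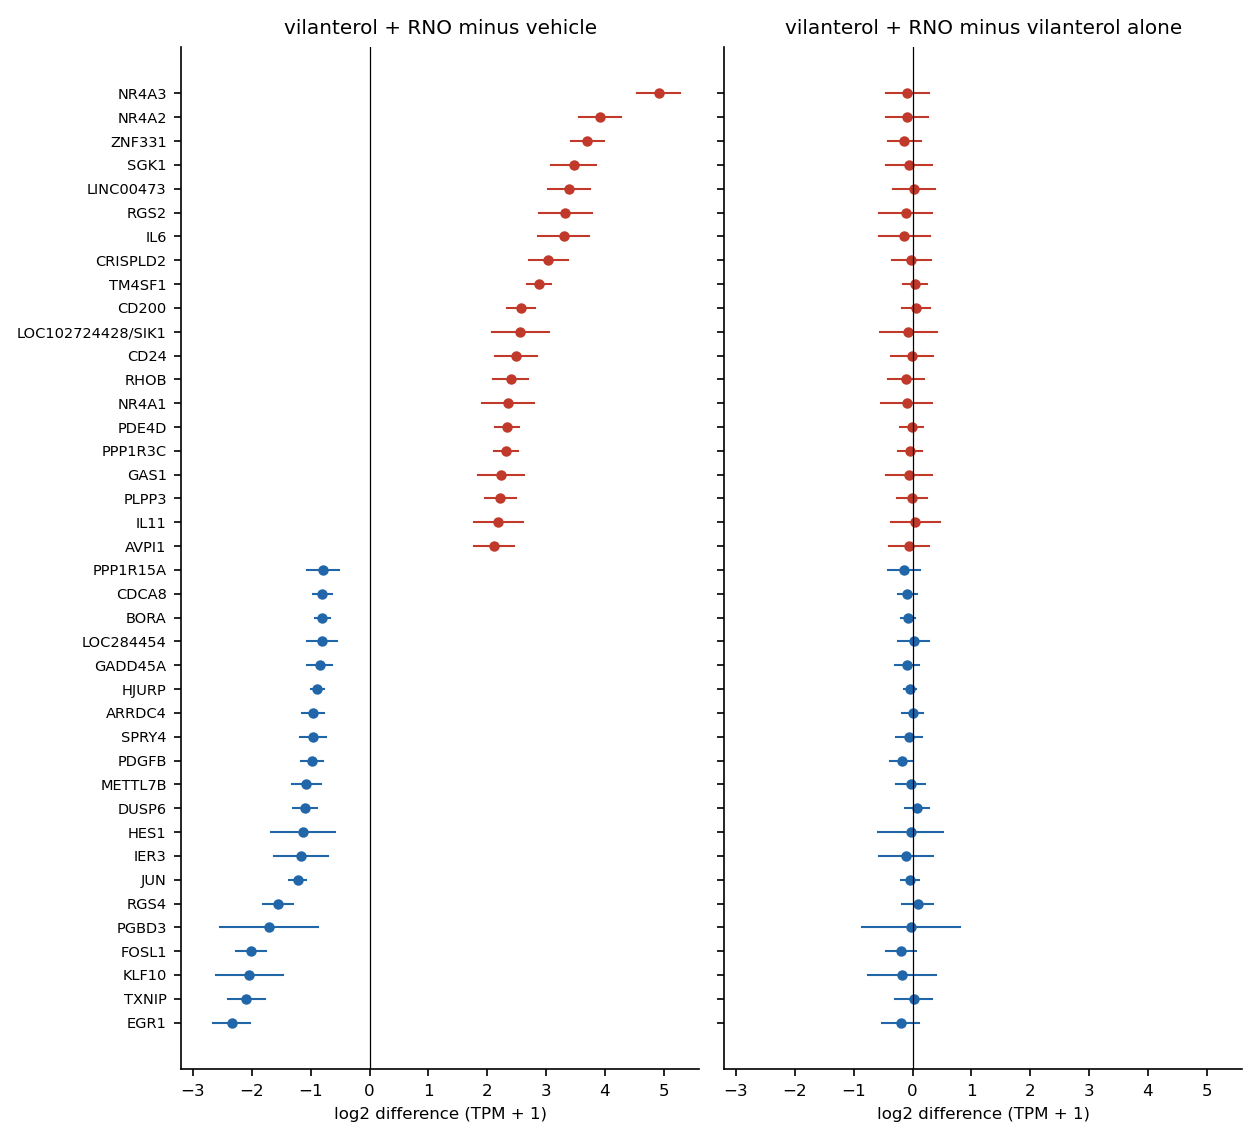
Log2 differences with 95% intervals (limma, n = 4 per group) of the 20 highest and 20 lowest genes of vilanterol + RNO against vehicle, in red and blue; the left panel is the difference from vehicle, which chose the genes, and the right panel the difference from vilanterol alone on the same scale. In the right panel all 40 intervals include zero, the widest being that of PGBD3, with EGR1 at -0.20 and DUSP6 at 0.07.

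Whether the effect of RNO differed with and without vilanterol was tested by the interaction of the drugs, which called 1 gene, PPM1D. Levels with RNO alone are given first for genes that vilanterol + RNO changed. PDE4D was at 2.51, 3.38, 4.26 and 3.65 TPM with RNO alone, of which the lowest library lay within the vehicle range. RGS2 was at 8.47, 11.6, 13.1 and 12.4 TPM with RNO alone, above every vehicle library and below every library with vilanterol. EGR1 stood at 12.5, 11.1, 8.77 and 7.6 TPM with RNO alone, below the vehicle libraries and above those of vilanterol + RNO. In limma 1 of 12591 genes was called for the interaction (0.00794%). This was PPM1D, at 17.3, 18, 18.2 and 19.5 TPM with RNO, 27.4, 27.9, 26.3 and 28.8 TPM with vilanterol and 26.8, 26.5, 24.8 and 26.5 TPM with both. Its effect of RNO was lower by -0.29 ± 0.05 log2 (SE) in the presence of vilanterol (adjusted p = 0.036), and the call was lost in 14 of 27 alternatives, including without vehicle replicate 3. A further count of 726 genes had an unadjusted p under 0.05.

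With the replicate number as a block 31 genes were called for the interaction (36 also without vehicle replicate 3, 25 of the 31 among them). Of the 31, 20 had a positive and 11 a negative interaction, and 0 were called between vilanterol + RNO and vilanterol in the same fit. PDE4B was at 0.99 TPM in vehicle, 1.9 with RNO, 3.81 with vilanterol and 3.91 with both, an interaction of -0.51 log2. PPP1R3C, at 3.64, 5.93, 23 and 22.3 TPM in the same order, had -0.61. FGF9 was at 5.49, 7.21, 12.5 and 12 TPM (-0.39). F3, the gene of tissue factor, was lower with RNO, at 253, 189, 197 and 202 TPM (0.47). RNO alone moved the mean of each of these 4 genes away from vehicle, while the difference between vilanterol with and without RNO ranged from -0.05 (FGF9) to 0.04 log2 (F3).

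Vilanterol + RNO was also set against 1 uM ONO + RNO, in which EP4 takes the place of the β2-adrenoceptor and RNO is the same. These 2 groups share no library. In limma 0 of 12591 genes were called (0%), and 306 had an unadjusted p under 0.05. The 95% interval lay within 1 log2 of zero for 12496 genes (99.2%), against 97.5% in the comparison with vehicle. NR4A3 was at 71.8, 72.6, 58.5 and 71.5 TPM with ONO + RNO, a log2 difference of 0.01 (-0.35 to 0.37) from vilanterol + RNO. IL6 was at 55.1, 43.2, 26.3 and 39.4 TPM there, a difference of 0.41 (-0.02 to 0.84). The smallest adjusted p, 0.055, was that of TXNIP, at 23.5, 24.1, 35.7 and 30.3 TPM with ONO + RNO against 12, 13.2, 19.8 and 16.6 TPM with vilanterol + RNO. The groups did not overlap, and the difference was -0.84 log2 (-1.16 to -0.53). TXNIP was called in 7 of 18 alternatives, among them the replicate block, under which 4 genes were called (TXNIP, CDK17, FST and ADNP-AS1). Over these alternatives its limma adjusted p ranged from 7.7e-09 to 0.9998, and the 0.055 comes from the fit that leaves out the replicate number.

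To compare the groups on genes not chosen with vilanterol libraries, genes were taken that were called and at least 2-fold different between 1 uM ONO alone and vehicle. These were 52 higher and 7 lower genes. The vehicle and 1 uM ONO libraries both chose them, so the means of these 2 groups carry that choice. The mean log2(TPM + 1) of the 52 was 3.45 ± 0.12 in vehicle and 3.65 ± 0.15 with RNO (SD, n = 4). It was 5.62 ± 0.11 with vilanterol and 5.57 ± 0.10 with vilanterol + RNO. With 1 uM ONO it was 5.001 ± 0.122, and with 1 uM ONO + RNO 5.47 ± 0.08. Over the 52 genes the difference between vilanterol + RNO and vilanterol had a median of -0.04 log2 and ranged from -0.19 to 0.06. The 7 lower genes had a mean of 4.38 ± 0.14 in vehicle, 2.77 ± 0.20 with vilanterol and 2.68 ± 0.18 with vilanterol + RNO. For scale, the mean of the 52 was 3.505 ± 0.107 with 0.1 nM ONO and 4.22 ± 0.07 with 0.1 nM ONO + RNO.

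**Figure D5:**
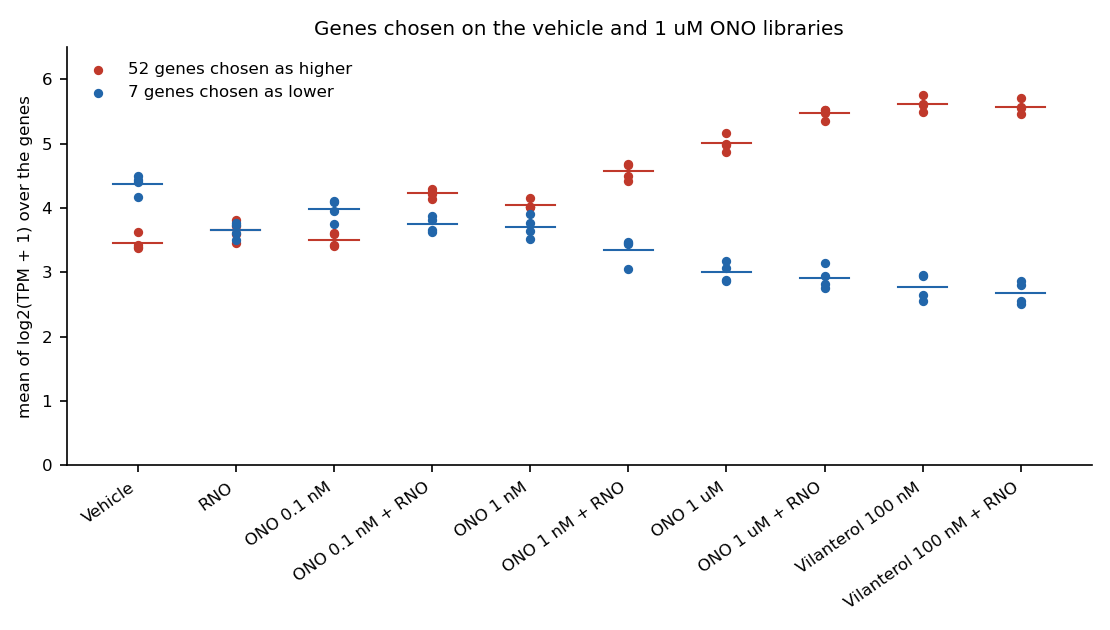
Mean log2(TPM + 1) over 52 genes chosen as higher (red) and 7 chosen as lower (blue) with 1 uM ONO against vehicle, with 1 point per library and a line at the mean of 4 libraries, for all 10 groups. The red points of vilanterol + RNO lie between 5.46 and 5.71 and overlap those of vilanterol alone at 5.50 to 5.75.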

How the data were processed

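The deposited values are a normalised signal: TPM adjusted between samples by the authors, in 1 table of 15788 entries by 40 libraries, where column totals are unequal. TPM had been assumed when the tests were designed, and the test for it was kept. The submitters' processing notes name bcl2fastq 2.18.0.12, kallisto and sleuth with GRCh37 and hg19, and no other version is named in the sources used here. Libraries were directional poly(A) libraries sequenced with 2 kits, per the labels' protocols, which do not say which library ran with which kit, so kit and group cannot be told apart. No read counts were analysed, so depth is unknown.

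Genes averaging at least 1 over all 40 libraries (12591) were fitted as log2(value + 1) with limma 3.58.1 in R 4.3.3 (lmFit, contrasts, eBayes with trend), with 1 mean per group of 4 and 30 residual degrees of freedom, and p-values were adjusted by Benjamini-Hochberg within each comparison. Figures were drawn with matplotlib in Python. Folds are ratios of group means, and log2 differences understate changes of low genes. More than 1 symbol is named by 69 entries. Symbols were matched to RefSeq windows of GRCh38.p14 for promoters only. The fit was tested on simulated data. The named genes are the 20 highest and 20 lowest called genes without overlap between the groups, BORA among them. Members of the gene lists and the receptor and PDE4 genes are also named. Beyond these, CDK17 and ADNP-AS1 are named as called with the replicate block. Some listed genes are not reported here. The comparison, lists and tests were chosen with earlier results of these data known. Alternatives were other pseudocounts, filters, scalings, variance models, library weights, a replicate block, the 8 libraries alone, and each library left out. A block with vehicle replicate 3 left out was added after seeing the data. Deviations of same-numbered libraries from their group means correlated at 0.140 to 0.280 over genes, against -0.199 to 0.0965 for other pairs. The labelled numbers were taken to pair the samples only in the replicate block. The main fit and its p-values leave this pairing out.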

Additional observations from a re-analysis of the deposited data

Results flagged for a closer look

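Each of 62 genes was checked in both groups (124 groups of 4) for a library that stood far from the other 3. Chance meets this rule in about 1 of 20 groups, and here 12 of the 124 groups met it. In vehicle replicate 2 the highest value of its group stood apart for NR4A2 (1.11 TPM), DUSP1 (76.7), DUSP6 (6.49) and PLPP3 (11.3). Vehicle replicate 3 stood apart for ARRDC4 (lowest, 10.2 TPM), PGBD3 (highest, 7.88) and ID3 (highest, 6.83), and vehicle replicate 1 for GAS1 (lowest, 7.85 TPM). Among the vilanterol + RNO libraries, replicate 1 was highest for PPP1R3C (26.3 TPM), replicate 2 for PGBD3 (1.10 TPM) and replicate 4 for IL16 (1.22 TPM), while replicate 3 was lowest for PPM1D (24.8 TPM). All 11 genes kept their call and direction against vehicle with each library left out in turn.

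The effect of RNO on PPM1D differed between cells with and without vilanterol, with an interaction of -0.29 log2 in limma (adjusted p = 0.036, range over 27 alternatives 0.0012 to 0.88). The 4 RNO libraries lay above the 4 vehicle libraries.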

How the results depend on the processing

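Depth is unknown, and kits and cultures are not told apart by the labels. Of 225 called genes followed singly, 157 kept call and direction under every alternative and 68 lost the call in at least 1. Genes called against vehicle numbered 960 with only the 8 libraries fitted, 4029 with the replicate block and 1851 to 2769 with 1 library left out. Interaction calls numbered 0 with only the 4 groups fitted or with equal totals, 31 with the replicate block, 36 with the block and without vehicle replicate 3, and 0 to 2 with 1 library left out. Calls against 1 uM ONO + RNO numbered 1 with log2(value + 0.1), a mean of at least 5, equal totals or library weights, 4 with the replicate block, and 0 to 1 with 1 library left out. With the block none of the 225 called genes lost its call or turned, and 68 more of the 522 genes followed were called, 43 higher and 25 lower. PDE4A, not called, changed sign with equal totals (0.0136) and ranged from -0.0601 to 0.0469 log2 with 1 library left out. The causes were not tested. Counts in gene lists moved by more than 1.5 times in further settings. With only the 8 libraries fitted, members higher were 3 for MAP kinase phosphatases, 3 for YAP and TEAD, 2 for clock, 6 for unfolded protein, 5 for adhesion and 5 for cholesterol genes, and members lower were 3 for MAP kinase phosphatases, 2 for adhesion, 1 for G1, 15 for mitosis and 0 each for cholesterol genes and negative regulators. With a mean of at least 5, members higher were 6 for growth factors, 3 for cytokines, 1 for phosphodiesterases and 0 each for prostaglandin synthesis and interferon-stimulated genes, and members lower were 1 for TGF-beta genes and 0 each for cytokines and negative regulators. With the block and without vehicle replicate 3, members lower were 7 for YAP and TEAD, 7 for adhesion, 6 for interferon-stimulated genes and 5 for growth factors. With library weights, 3 MAP kinase phosphatases and 3 ion transport genes were higher, and 2 clock genes and 0 negative regulators were lower. With log2(value + 5), 2 cytokines were lower.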
